A study of Mus musculus with 2 samples.

Results

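The mitochondrial ribosomal protein genes were followed in mouse leukemia stem cells, a population carrying Friend virus, a retrovirus complex that drives erythroid leukemia in mice with the sensitive allele of Fv2. The genes were chosen by name: every protein-coding gene of the GENCODE M21 mouse annotation whose symbol starts with Mrpl or Mrps and a number, and which stands in both deposited gene tables. This gave 77 genes among 21474 protein-coding genes, 48 of the large subunit (Mrpl) and 29 of the small subunit (Mrps). The annotation holds 1 more large subunit gene, Mrpl33, which was not analysed here.

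The study holds 1 group of 2 biological replicates and no control group, so each value below describes these cells and the ratio between the libraries compares libraries, not conditions. Per the labels, both are polyadenylated RNA of Friend virus infected cells sorted as CD34+, CD133+, Kit+ and Sca1+, from adult males and females pooled at 10 to 12 weeks of age. The strains had to carry the Fv2 sensitive allele. The replicates have separate sample records but share 1 donor record, and nothing says how the cells were divided, so part of their spread may be technical. The gene tables sum to 23575315 expected counts over Ensembl genes in replicate 1 and 22541738 in replicate 2. RNA of the sort markers was scarce: Kit had 1.81 TPM in replicate 1 and 1.06 in replicate 2, Cd34 had 1.80 and 0.27, Ly6a (Sca1) had 1.45 and 2.15, and Prom1 (CD133) had 3 counts in replicate 1 and 0 in replicate 2. Summed erythroid markers had 2653 TPM in replicate 1 and 1451 in replicate 2, summed macrophage markers had 822 and 1214, nearly all from C1qa, C1qb and C1qc, and summed B lineage markers had 688 and 280. The other macrophage marker, Adgre1, went the other way, with 3.67 TPM in replicate 1 and 0.78 in replicate 2. In bulk RNA, fewer cells of a type and less RNA per cell cannot be told apart.

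Mitochondria carry their own ribosome, which translates the few messages encoded in mitochondrial DNA, all of them for core subunits of the respiratory chain and the ATP synthase. Its ribosomal RNAs come from mitochondrial DNA, whereas all its proteins come from nuclear genes, are made on cytosolic ribosomes and are imported. Many of these proteins have a counterpart in the bacterial ribosome, and the others were added in the mitochondrial lineage. In humans, loss of several of them, MRPS16, MRPS22, MRPL3 and MRPL44 among them, causes combined deficiencies of the respiratory chain complexes.

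The promoter windows of 6 members are shown first, since the members are set beside other genes by the motifs these windows hold. A promoter here is the window from 250 bases before to 50 bases after the start site in the RefSeq table for GRCm38.p6, the assembly also called mm10. The table held a window for 68 of the 77 genes. It has none for Mrpl4, Mrpl13, Mrpl15, Mrpl19, Mrpl38, Mrpl54, Mrps28, Mrps34 and Mrps35 under those symbols. The 4 motifs searched, on both strands, were GCGCNTGCG (as bound by NRF1, a regulator of nuclear genes for mitochondria), CCGGAAG (the ETS family, to which GABP belongs), AAGATGGC (as bound by YY1) and CACGTG (the E-box). The windows below belong to the most abundant member (Mrpl52), the stalk protein gene Mrpl12, the most abundant small subunit gene (Mrps12), the members of each subunit with the largest excess in replicate 1 (Mrpl32 and Mrps21) and the least abundant member (Mrpl47). They lie at chr14:54426659-54426958, plus strand (Mrpl52), chr11:120484387-120484686, plus strand (Mrpl12), chr7:28741772-28742071, minus strand (Mrps12), chr13:14612988-14613287, minus strand (Mrpl32), chr3:95871465-95871764, minus strand (Mrps21) and chr3:32736706-32737005, minus strand (Mrpl47). Each is written 5′ to 3′ on the gene's own strand, with matches to any of the 4 motifs in capitals.
Mrpl52: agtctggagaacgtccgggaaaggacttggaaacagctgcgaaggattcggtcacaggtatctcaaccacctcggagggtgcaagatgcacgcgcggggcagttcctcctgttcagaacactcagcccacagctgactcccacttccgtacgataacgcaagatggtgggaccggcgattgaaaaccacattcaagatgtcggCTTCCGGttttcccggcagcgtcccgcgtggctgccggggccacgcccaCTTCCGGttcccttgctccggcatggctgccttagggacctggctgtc
Mrpl12: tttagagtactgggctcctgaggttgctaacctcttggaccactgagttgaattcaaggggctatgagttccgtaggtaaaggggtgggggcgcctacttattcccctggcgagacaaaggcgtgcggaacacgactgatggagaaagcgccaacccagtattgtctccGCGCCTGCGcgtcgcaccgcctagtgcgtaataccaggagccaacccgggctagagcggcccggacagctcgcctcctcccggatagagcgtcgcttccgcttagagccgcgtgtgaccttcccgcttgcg
Mrps12: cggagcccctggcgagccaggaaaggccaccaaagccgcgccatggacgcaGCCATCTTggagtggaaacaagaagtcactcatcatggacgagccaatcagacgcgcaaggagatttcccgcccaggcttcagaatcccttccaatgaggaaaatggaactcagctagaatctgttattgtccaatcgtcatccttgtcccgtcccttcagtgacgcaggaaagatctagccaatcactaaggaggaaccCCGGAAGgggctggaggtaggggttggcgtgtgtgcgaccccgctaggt
Mrpl32: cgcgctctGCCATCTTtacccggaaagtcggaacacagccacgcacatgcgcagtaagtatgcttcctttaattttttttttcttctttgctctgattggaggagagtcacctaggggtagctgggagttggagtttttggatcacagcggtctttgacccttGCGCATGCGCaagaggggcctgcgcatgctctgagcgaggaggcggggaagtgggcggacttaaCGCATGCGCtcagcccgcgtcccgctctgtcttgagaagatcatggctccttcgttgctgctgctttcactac
Mrps21: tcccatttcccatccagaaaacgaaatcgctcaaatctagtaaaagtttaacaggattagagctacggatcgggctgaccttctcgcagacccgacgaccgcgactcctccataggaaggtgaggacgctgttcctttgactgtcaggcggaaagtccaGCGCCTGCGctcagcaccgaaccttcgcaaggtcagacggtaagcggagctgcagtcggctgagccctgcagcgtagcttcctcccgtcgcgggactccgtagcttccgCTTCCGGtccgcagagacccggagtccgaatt
Mrpl47: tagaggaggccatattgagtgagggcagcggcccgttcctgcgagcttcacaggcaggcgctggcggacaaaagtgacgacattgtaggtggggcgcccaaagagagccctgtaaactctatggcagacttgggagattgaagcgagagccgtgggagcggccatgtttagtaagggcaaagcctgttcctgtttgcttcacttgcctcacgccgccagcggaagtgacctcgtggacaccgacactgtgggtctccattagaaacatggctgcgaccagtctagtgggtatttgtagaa

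In these windows Mrpl52 shows the ETS motif on the reverse strand, once on each side of the start site. Mrpl12 holds a single NRF1-like match. Mrps12 holds a YY1-like match far upstream and an ETS match at the start site. Mrpl32 holds a palindromic run that counts as a pair of overlapping NRF1-like matches, a further one nearer the start site and a YY1-like match. Mrps21 holds an NRF1-like match upstream and an ETS match in its first bases. The Mrpl47 window holds none of the 4 motifs as written.

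The NRF1-like motif stood in the windows of 18 of 68 members (26.5%), beside 10.2% of all 16317 protein-coding genes with a window and 17.1% of the 7120 of them with 1 TPM or more in both libraries. The ETS motif stood in 25 members (36.8%), beside 13.5% and 22.4%. The YY1-like motif stood in 12 members (17.6%), beside 3.66% and 5.69%. For the E-box the order was the other way, with 5 members (7.35%) beside 9.24% and 12.5%. At least 1 of the 4 motifs was found in 45 members (66.2%), in 4895 of the 16317 genes with a window and in 3262 of the 7120 with 1 TPM or more in both libraries (45.8%). By subunit, the NRF1-like motif stood in 13 of 42 large subunit genes and 5 of 26 small subunit genes, and the ETS motif in 14 and 11. The 45 members with a motif had a median of 46.8 TPM and the 23 without had 13.4 TPM. Members that lack a window are in neither set, and the same medians were not taken over all genes. A match is a stretch of letters, not evidence that a factor binds there in these cells.

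**Figure D1:**
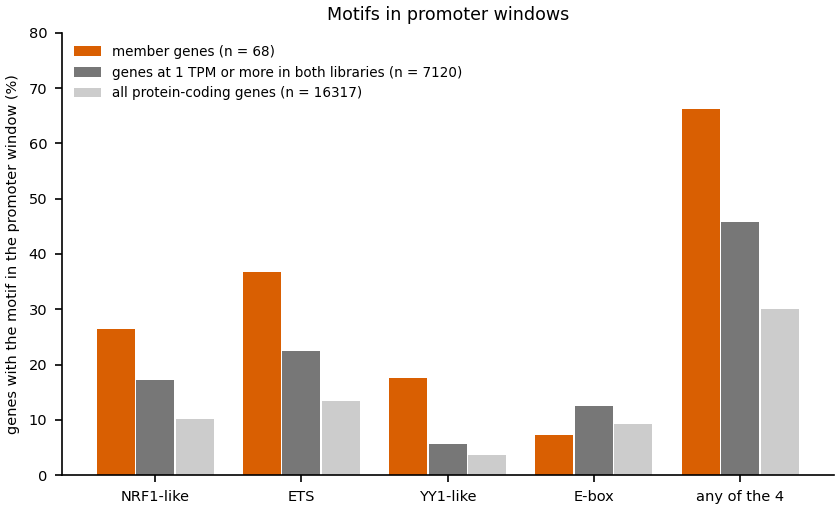
Share of genes (vertical axis, percent) whose promoter window holds each motif (horizontal axis), for 68 member genes, 7120 protein-coding genes with 1 TPM or more in both libraries and all 16317 protein-coding genes with a window. Members stand at 26.5% for the NRF1-like, 36.8% for the ETS and 17.6% for the YY1-like motif, above both other bars, and at 7.35% for the E-box, below both.

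Many members also start next to another gene. Start sites are taken here as the outer ends of the M21 genes. They can differ from the RefSeq starts of the promoter windows, as for Mrpl36. The start sites of 19 of the 77 members (24.7%) stood head to head with the start of another protein-coding gene on the opposite strand, at most 1000 bases apart or overlapping by at most 100, beside 7.28% of all 21474 protein-coding genes. Only 41.6% of those genes had 1 TPM or more in both libraries, and the share among expressed genes was not taken. Several of these neighbours serve mitochondria too. Mrps12 starts 172 bases from Sars2, the mitochondrial seryl-tRNA synthetase, and Mrps27 starts 81 bases from Ptcd2, a mitochondrial RNA-binding protein. The starts of Mrpl36 and Ndufs6, a subunit of respiratory complex I, lie 29 bases apart and the genes share 30 exonic bases. Others do not: Mrpl49 starts 59 bases from Fau, which encodes a cytosolic ribosomal protein fused to a ubiquitin-like one, and Mrpl32 starts 75 bases from Psma2, a proteasome subunit. A promoter window can thus reach into the neighbour, as in Mrps12, whose YY1-like match lies past the start of Sars2. The members are spread over 17 chromosomes, with 11 on chromosome 11 and 8 on chromosome 17.

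Most of the 77 genes were expressed well above the typical gene. TPM, a share of transcripts, is per length and allows levels to be set side by side. With 1 TPM or more in both libraries as the limit, 69 of 77 members were detected, 42 of 48 in the large and 27 of 29 in the small subunit, beside 41.6% of all protein-coding genes. At 10 TPM or more in both libraries the count was 50 members, 31 large and 19 small, beside 21.4% of all protein-coding genes. At 100 TPM or more it was 10 members, 7 large and 3 small, beside 4.21%. The median member had a mean level of 33.2 TPM, against 0.55 TPM for all protein-coding genes and 15.4 TPM for those detected in both libraries. The contrast was smaller beside 1436 other protein-coding genes with 20 or more counts and with length and GC content between the members' quartiles: 1 TPM or more in both libraries was reached by 89.6% of the members and 83.4% of these genes, 10 TPM by 64.9% and 41.6%, and 100 TPM by 13.0% and 6.75%. The median level of these genes was 10.8 TPM. The middle part of the members, between the quartiles, ran from 10.4 to 70.5 TPM.

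By subunit, the median level was 30.9 TPM for the large and 41.8 TPM for the small subunit genes. On the log2(TPM + 1) scale the medians differed by -0.42, large minus small. It was -0.17 in replicate 1 alone and -0.53 in replicate 2 alone. With Mrps30 and Mrps18a, whose proteins sit in the large subunit, counted there it was -0.18. It turned to 0.13 without the members that share sequence with a pseudogene, so the order of the subunits depends on which members are counted. Summed over the members, TPM made up 0.641% of the replicate 1 table and 0.880% of the replicate 2 table. Of the table totals the large subunit made up 0.475% and 0.708%, and the small subunit 0.166% and 0.173%. The spread among members was wide. The standard deviation of log2 mean TPM was 2.13 over all members, 2.32 in the large and 1.82 in the small subunit, and it was 2.93 over the 84 cytosolic ribosomal protein genes. Members of higher transcript GC content tended to have higher levels. Across the 77 genes, Pearson's r between log2(TPM + 1) and transcript GC content was 0.58 and Spearman's rho was 0.53. For log2 transcript length r was -0.33 and rho was -0.28. GC content and length are throughout those of the gene's longest coding transcript in M21. Another form can hold most of the TPM, as in Mrps26 and Mrpl2. These correlations with level were not taken over all genes. They are descriptions across genes of the same libraries, and genes are not independent replicates.

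**Figure D2:**
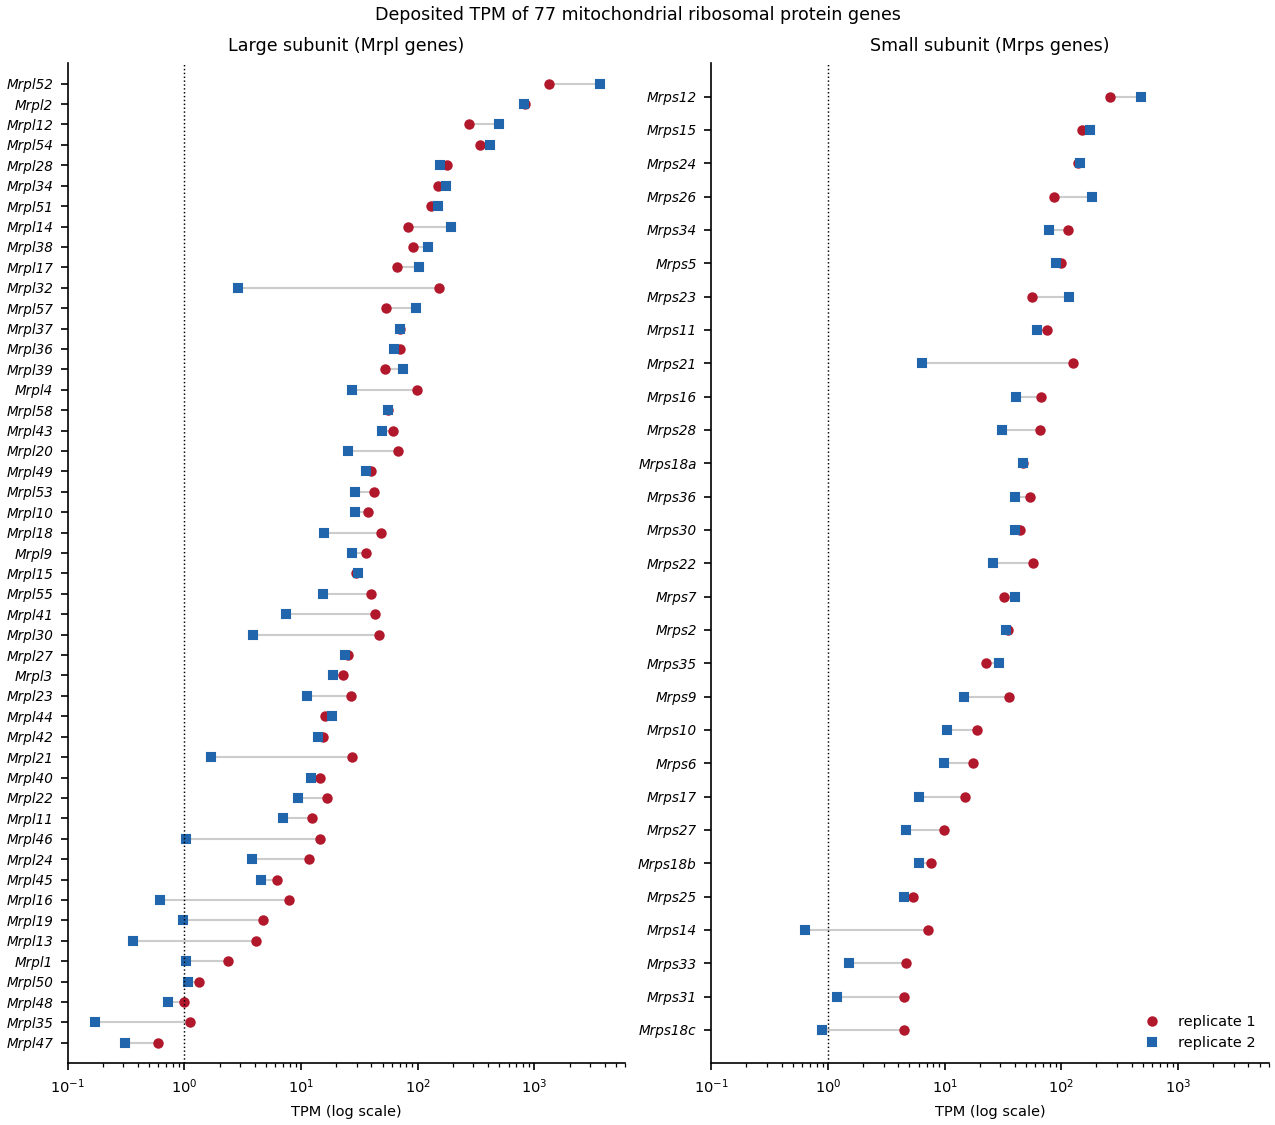
Deposited TPM (horizontal axis, log scale) of each member gene in replicate 1 (circles) and replicate 2 (squares), in rows ordered by mean level, for the 48 large subunit genes at left and the 29 small subunit genes at right. The dotted line marks 1 TPM. Mrpl52 reaches 1328 and 3651 TPM, Mrpl47 lies at 0.60 and 0.31 TPM, and Mrpl32 has the widest gap between its points.

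Among large subunit genes, Mrpl52 was the most abundant. It encodes a protein with no bacterial counterpart (mL52) and lies at chr14:54426909-54429756 on the plus strand. It had 1328 TPM (7336 counts) in replicate 1 and 3651 TPM (19681 counts) in replicate 2. These came from the only transcript quantified for it, a coding one of 412 bases. Without it the members' share of TPM, as a mean of the libraries, was 0.512% in place of 0.761%. Mrpl2 (chr17:46646229-46650139, plus strand) encodes uL2m, a conserved protein near the peptidyl transferase centre, and had 827 TPM in replicate 1 and 820 in replicate 2. Most of that came from a short non-coding transcript, described below. Mrpl12 (chr11:120484613-120489065, plus strand), the counterpart of the bacterial stalk protein L7/L12 that recruits translation factors, had 277.5 TPM in replicate 1 and 500.1 in replicate 2. Mrpl54 had 339 and 418 TPM, Mrpl28 had 177 and 156, and Mrpl34 had 151 and 173. Of these 6 highest genes of the large subunit, Mrpl2, Mrpl12, Mrpl28 and Mrpl34 have a bacterial counterpart and Mrpl52 and Mrpl54 do not.

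At the low end of the large subunit stood Mrpl47 (uL29m, at the exit of the peptide tunnel) with 0.60 TPM in replicate 1 and 0.31 in replicate 2, from 35 and 4 counts. Mrpl35 (bL35m) had 1.12 and 0.17 TPM, Mrpl48 had 0.99 and 0.73, and Mrpl50 had 1.33 and 1.07. Mrpl48 and Mrpl47 were the members under 1 TPM in both libraries. Mrpl13 (0.36 TPM), Mrpl16 (0.62), Mrpl19 (0.97) and Mrpl35 were under 1 TPM in replicate 2 only, with 4.15, 7.83, 4.75 and 1.12 TPM in replicate 1. Counts behind the values under 1 TPM in replicate 2 ran from 4 to 94 in these genes. From Mrpl47 to Mrpl52, mean levels of the large subunit genes ran from 0.46 to 2489.7 TPM.

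In the small subunit, Mrps12 (chr7:28739641-28741820, minus strand) was the highest. It encodes uS12m, the counterpart of the bacterial decoding centre protein S12, and had 261 TPM in replicate 1 and 486 in replicate 2. Mrps15 had 151 and 175 TPM, Mrps24 had 138 and 144, Mrps26 had 85.8 and 181.6, Mrps34 had 114 and 78.5, and Mrps5 had 99.9 and 90.4. The lowest were Mrps18c with 4.53 and 0.89 TPM, Mrps31 with 4.47 and 1.19, Mrps33 with 4.66 and 1.53, and Mrps14 with 7.21 and 0.64. Mrps18c and Mrps14 were under 1 TPM in replicate 2, from 12 and 20 counts. Mrps16 and Mrps22, whose human counterparts are mutated in respiratory chain deficiency, had 67.6 and 41.0 TPM and 57.7 and 25.8 TPM.

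The Mrps18 genes encode related versions of bacterial protein S18. In the structure of the mammalian mitochondrial ribosome Mrps18c sits in the small subunit at the place of S18, Mrps18b elsewhere in the small subunit, and Mrps18a in the large subunit. Mrps18a had 47.4 TPM in replicate 1 and 47.0 in replicate 2, Mrps18b had 7.67 and 6.01, and Mrps18c had 4.53 and 0.89. Mrps18a was the highest and Mrps18c the lowest of them in both libraries. Mrps30, another gene of small subunit name whose protein sits in the large subunit, had 44.6 and 39.9 TPM. Mrps36, named for the ribosome but known to encode a component of the 2-oxoglutarate dehydrogenase complex, had 53.9 and 40.4 TPM. Mrpl58, a peptidyl-tRNA hydrolase built into the large subunit that can free stalled chains, had 55.9 and 55.5 TPM.

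Some subunits do not carry the Mrp name. Of 5 such genes, Aurkaip1 (mS38) had 145.5 TPM in replicate 1 and 262.5 in replicate 2, Gadd45gip1 (mL64) had 48.9 and 89.5, Dap3 (mS29, a GTP-binding protein) had 101.9 and 21.6, Chchd1 (mS37) had 5.46 and 3.05, and Ptcd3 (mS39, at the mRNA entrance) had 4.15 and 0.54. By the comparison of libraries below, Ptcd3 was apart with more in replicate 1, Aurkaip1 and Gadd45gip1 with more in replicate 2, and Dap3 and Chchd1 were not apart.

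To compare the libraries, rounded expected counts were scaled with TMM factors, and a gene was called apart when its ratio passed 2-fold and its whole exact 95% binomial interval lay beyond 2-fold. The interval covers counting error only, and no variance between replicates can be tested with 1 library on each side. All 77 members had the 20 or more counts in both libraries together that the comparison asked for. The median log2 ratio of replicate 1 over replicate 2 was 0.07 over the members and 0.06 over 11708 protein-coding genes. In all, 15 members were apart with more in replicate 1, beside 14.9% of protein-coding genes tested, and 7 were apart with more in replicate 2, beside 8.36%. These are 19.5% and 9.09% of the members, and 55 were not apart. Among the 15 there were 13 large and 2 small subunit genes, and among the 7 there were 4 large and 3 small ones.

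These ratios are relative to the scaling. With total counts in place of TMM the median over all genes moved to 0.47, and with the ratio of deposited TPM to 0.45. With total counts 21 members were apart toward replicate 1 and 4 toward replicate 2, and with the ratio of TPM 20 and 3, in place of 15 and 7. With total counts these were 27.3% and 5.19% of the members, beside 23.1% and 3.16% of all protein-coding genes tested, and with the ratio of TPM 26.0% and 3.90%, beside 24.2% and 3.92%. Mrpl12, Mrpl57 and Mrps12 were not apart under either of these scalings, and Mrpl47 and Mrps23 were not apart with the ratio of TPM. In return Mrpl20, Mrpl55, Mrps9, Mrps18c and Mrps31 became apart under both, Mrps33 with total counts and Mrps22 with the ratio of TPM. No apart member changed direction under either. The summed erythroid, macrophage and B lineage markers given above also differ between the libraries, and their part in these ratios was not tested.

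The widest gap was in Mrpl32 (chr13:14608184-14613165, minus strand), which encodes bL32m, a protein trimmed by the m-AAA protease before it joins the large subunit. It had 153.6 TPM (1928 counts) in replicate 1 and 2.89 TPM (36 counts) in replicate 2, a log2 ratio of 5.25 with an interval of 4.80 to 5.79. It shares coding sequence with an annotated pseudogene, and M21 types its only transcript in the tables as subject to nonsense-mediated decay. Mrpl21 (bL21m) had 297 counts in replicate 1 and 17 in replicate 2, a log2 ratio of 3.62. Mrps21 (bS21m) had 702 and 41 counts (3.61), Mrpl30 (uL30m) 668 and 43 (3.47), Mrpl46 281 and 20 (3.31) and Mrpl16 (uL16m, by the peptidyl transferase centre) 153 and 12 (3.15). Mrpl13, Mrpl47, Mrpl41, Mrps14, Mrpl35, Mrpl19, Mrpl18, Mrpl24 and Mrpl4 followed, with log2 ratios from 2.80 down to 1.37. Of these 15 genes, 8 share coding sequence with an annotated pseudogene (53.3%), beside 30 of all 77 members (39.0%), and the highest count of such a pseudogene with a row in the tables was 0 in replicate 1 and 1 in replicate 2. Exons of another gene overlap 7 of the 15 (Mrpl13, Mrpl18, Mrpl19, Mrpl21, Mrpl24, Mrpl46 and Mrpl47), beside 32 of all 77. Mrpl46 overlaps Mrps11 on the opposite strand over 173 exonic bases. This neighbour had 1040 counts in replicate 1 and 867 in replicate 2 and was not apart. Other neighbours, all on the opposite strand, varied. In replicate 1 and replicate 2, Ndufb5 had 491 and 30 counts and Actl6a 462 and 190 (both beside Mrpl47). Tcp1 (Mrpl18) had 1515 and 313, Rrnad1 (Mrpl24) 661 and 256, and Gcfc2 (Mrpl19) 123 and 69. Mtbp (Mrpl13) had 185 and 186, and Ighmbp2 (Mrpl21) 464 and 710.

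In the other direction, Mrpl52 had the largest excess in replicate 2, a log2 ratio of -1.89 with an interval of -1.93 to -1.86. Mrpl14 (uL14m, at the interface of the subunits) had 691 counts in replicate 1 and 1696 in replicate 2, a log2 ratio of -1.77. Mrps26 had 1828 and 4138 counts (-1.65), Mrps23 had 464 and 993 (-1.57), Mrpl12 had 6479 and 11669 (-1.32) and Mrpl57 had 2333 and 4162 (-1.31). Mrps12 was the last of the 7, with 3056 and 5025 counts and a ratio of -1.19. Among the other genes named by the rule, Mrps16 had a ratio of 0.27, Mrps22 of 0.69, Mrps18a of -0.15, Mrps18b of -0.09, Mrps30 of -0.31, Mrps36 of -0.05, Mrpl58 of -0.58 and Mrpl44 of -0.26, none of them apart with TMM scaling. Mrps18c had 50 counts in replicate 1 and 12 in replicate 2, a ratio of 1.54 whose interval of 0.66 to 2.63 reaches below 2-fold.

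**Figure D3:**
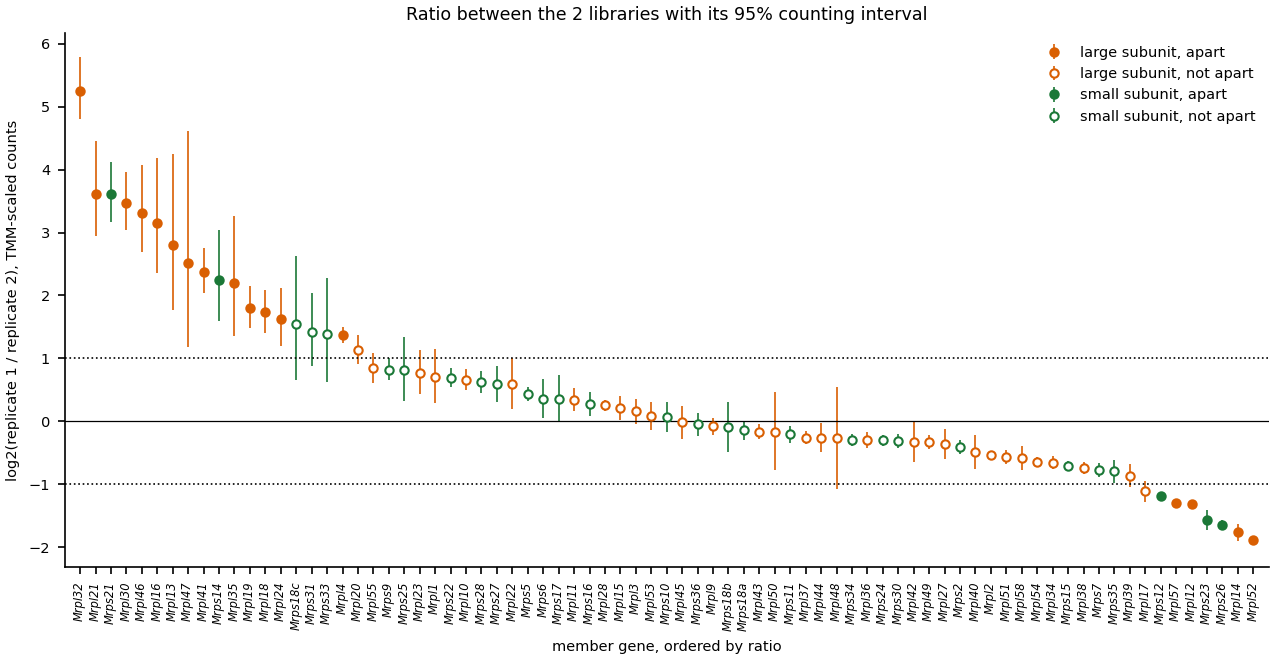
Log2 ratio of replicate 1 over replicate 2 (vertical axis, TMM-scaled counts) of each of the 77 member genes (horizontal axis, ordered by ratio), with the exact 95% interval of counting error as a bar. Filled points are apart and open points are not. Dotted lines mark 2-fold. Mrpl32 stands at 5.25 and Mrpl52 at -1.89.

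The ratio went with the level of the gene. The 26 members of highest mean level, from 55.7 to 2489.7 TPM, had a median log2 ratio of -0.61, with 3 apart toward replicate 1 and 7 toward replicate 2, beside 9.64% and 15.5% of all protein-coding genes in that range. The next 26, from 14.7 to 55.4 TPM, had a median of 0.12, with 3 and 0 apart, beside 13.3% and 9.03%. The lowest 25, from 0.46 to 14.7 TPM, had a median of 0.81, with 9 and 0 apart, beside 17.2% and 6.05%. All protein-coding genes in the same ranges had medians of -0.32, -0.06 and 0.27, in the same order. Across the members, Pearson's r between ratio and mean level was -0.49 and Spearman's rho was -0.61, beside -0.19 and -0.19 over 11690 protein-coding genes. The ratio and the mean are made of the same counts. Between ratio and transcript GC content r was -0.31 and rho was -0.30, close to the -0.33 and -0.32 of all genes, and genes of like length and GC content had a median ratio of 0.13.

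**Figure D4:**
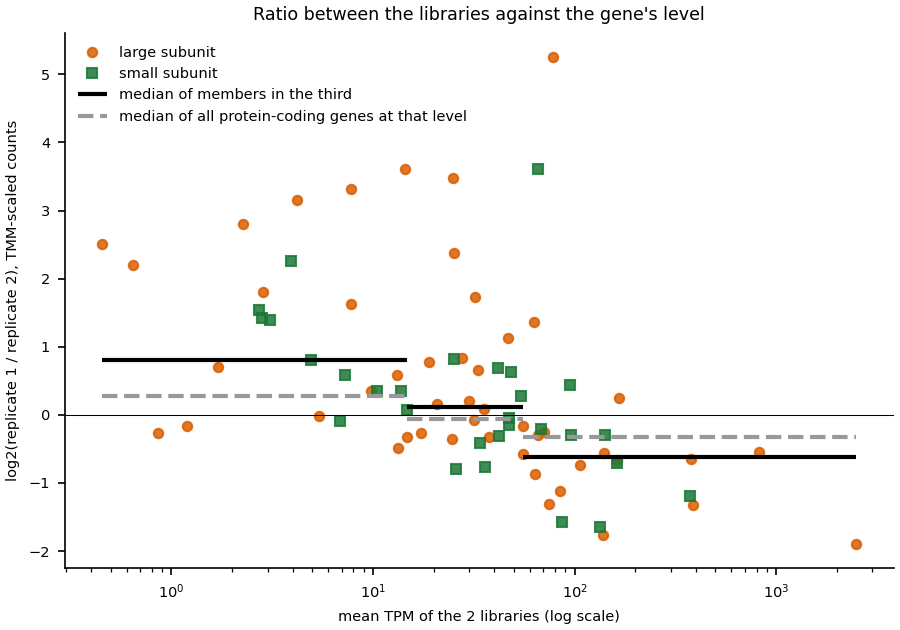
Log2 ratio of replicate 1 over replicate 2 (vertical axis) against mean TPM (horizontal axis, log scale) for large (circles) and small (squares) subunit genes. Solid lines are medians of the members in 3 ranges of level, at 0.81, 0.12 and -0.61 from low to high, and dashed lines are the medians of all protein-coding genes in the same ranges, at 0.27, -0.06 and -0.32.

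Setting the members by origin gave unequal counts. Of 45 members with a counterpart in the bacterial ribosome, 13 (28.9%) were apart toward replicate 1 and 3 (6.67%) toward replicate 2. Their median log2 ratio was 0.44. Of 32 members without such a counterpart, 2 (6.25%) were apart toward replicate 1 and 4 (12.5%) toward replicate 2, with a median of -0.26. Over all protein-coding genes tested the shares were 14.9% and 8.36%. Median levels were 31.7 TPM with a counterpart and 39.7 TPM without. The difference between these sets was not tested, since genes of a single pair of libraries are not replicates. Between the subunits the medians of the ratio differed by -0.04, large minus small, and by -0.32 when Mrps30 and Mrps18a were counted with the large subunit. Over all 77 genes, log2(TPM + 1) in replicate 1 and replicate 2 had a Pearson's r of 0.89 and a Spearman's rho of 0.86, beside 0.94 and 0.93 over 15206 protein-coding genes above 0 TPM in either library.

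The rest of the mitochondrial translation apparatus was set beside the members. In the comparison of libraries, 14.9% of all protein-coding genes tested were apart toward replicate 1 and 8.36% toward replicate 2. Of 30 assembly factors, 23 had 1 TPM or more in both libraries. Of the 29 tested, 6 (20.7%) were apart toward replicate 1 and 1 (3.45%) toward replicate 2, with a median log2 ratio of 0.02. The most abundant were C1qbp, a matrix protein that binds ribosomal RNA and complement, with 701 TPM in replicate 1 and 854 in replicate 2, Mpv17l2 with 142 and 110, and Malsu1, which keeps the subunits from joining early, with 67.6 and 91.3. Of 15 translation factors, 12 were detected in both libraries, and of the 13 tested 4 (30.8%) were apart toward replicate 1 and 0 toward replicate 2. Oxa1l, the inner membrane insertase that receives the nascent chains, had 129.8 TPM in replicate 1 and 66.2 in replicate 2. The elongation factor Tufm had 68.9 and 18.1 TPM, and its exchange factor Tsfm had 73.1 and 78.6. Of 17 mitochondrial aminoacyl-tRNA synthetases, 16 were detected in both libraries and 1 (5.88%) was apart in each direction. Vars2 had 130 TPM in replicate 1 and 157 in replicate 2, Yars2 had 86.1 and 70.6, and Sars2, the neighbour of Mrps12, had 53.2 and 46.5.

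The messages that this ribosome translates differed more between the libraries. The 13 mitochondrially encoded mRNAs took 3.89% of TPM in replicate 1 and 0.786% in replicate 2, while the members took 0.641% and 0.880%. Without mt-Atp8, a short gene that held most of replicate 1's sum, their shares were 1.40% and 0.397%. Of the 11 tested, 7 (63.6%) were apart toward replicate 1 and 0 toward replicate 2, with a median log2 ratio of 2.24. Over all protein-coding genes tested the shares were 14.9% and 8.36%. The most abundant by mean TPM were mt-Atp8 with 24876 TPM in replicate 1 and 3889 in replicate 2, mt-Nd1 with 2321 and 1310, and mt-Cytb with 2439 and 990.4. mt-Co2 and mt-Nd3 are listed at 0 in both libraries. The mt-Atp8 reading frame overlaps that of mt-Atp6, so reads between them may be split. The 84 cytosolic ribosomal protein genes took 10.7% of TPM in replicate 1 and 7.28% in replicate 2, with 30 apart toward replicate 1 and 6 toward replicate 2 of 82 tested.

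The transcript tables show which RNA forms stood behind the gene levels. Transcript types are those of M21, while the tables were made on M4, so a type may have been revised in between. Of the 77 members, 58 had more than 1 transcript, and in 40 of them replicate 1 and replicate 2 were led by the same one. A protein-coding transcript led in both libraries in 52 of 77 members (67.5%), beside 73.0% of 8942 protein-coding genes with 1 TPM or more in both. Among the 69 members that reached the same limit the share was 68.1%. In 21 members coding transcripts held under 50% of the gene's TPM in both libraries. They were 27.3% of all 77 members and 30.4% of the 69, beside 17.0% of the 8942 genes. Short transcripts weigh more in TPM than in counts: by expected counts, 15 members were under 50% coding in both libraries. These were 19.5% of the 77 and 21.7% of the 69, beside 10.7%. Retained-intron transcripts held over 10% of TPM in 14 members (18.2%) in replicate 1 and 16 (20.8%) in replicate 2, beside 17.8% of genes in each library. With only coding transcripts counted, the median member had 18.5 TPM in place of 33.2 TPM.

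The forms differ by gene. Mrpl2 had 91.5% of its TPM in replicate 1 and 87.1% in replicate 2 in Mrpl2-205, a non-coding processed transcript of 434 bases. Its coding transcripts had 70.4 and 105.6 TPM, in place of 827 and 820. Retained-intron transcripts held 97.8% and 99.6% of Mrpl39, 94.0% and 97.1% of Mrpl51, 97.5% and 98.7% of Mrps5, and 91.0% and 91.3% of Mrpl58. In Mrps26 the share was 95.2% and 92.8%, in a transcript of 1057 bases, and its coding transcript of 4278 bases had 4.09 and 13.0 TPM. Mrpl44, an RNase III-like protein of the large subunit, had 51.1% in a retained-intron transcript in replicate 1 and 96.3% in replicate 2, so its coding level was 7.92 and 0.68 TPM. Mrpl54 had 2.17% and 48.8% in such a form. Mrps11 had 87.0% and 86.1% of TPM in Mrps11-205, which M21 types as subject to nonsense-mediated decay. In contrast, Mrpl12 had 99.7% and 99.96% of TPM in its coding transcript, Mrps12 had 100% in coding forms in both libraries, and Mrpl52 has no other transcript in the tables.

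**Figure D5:**
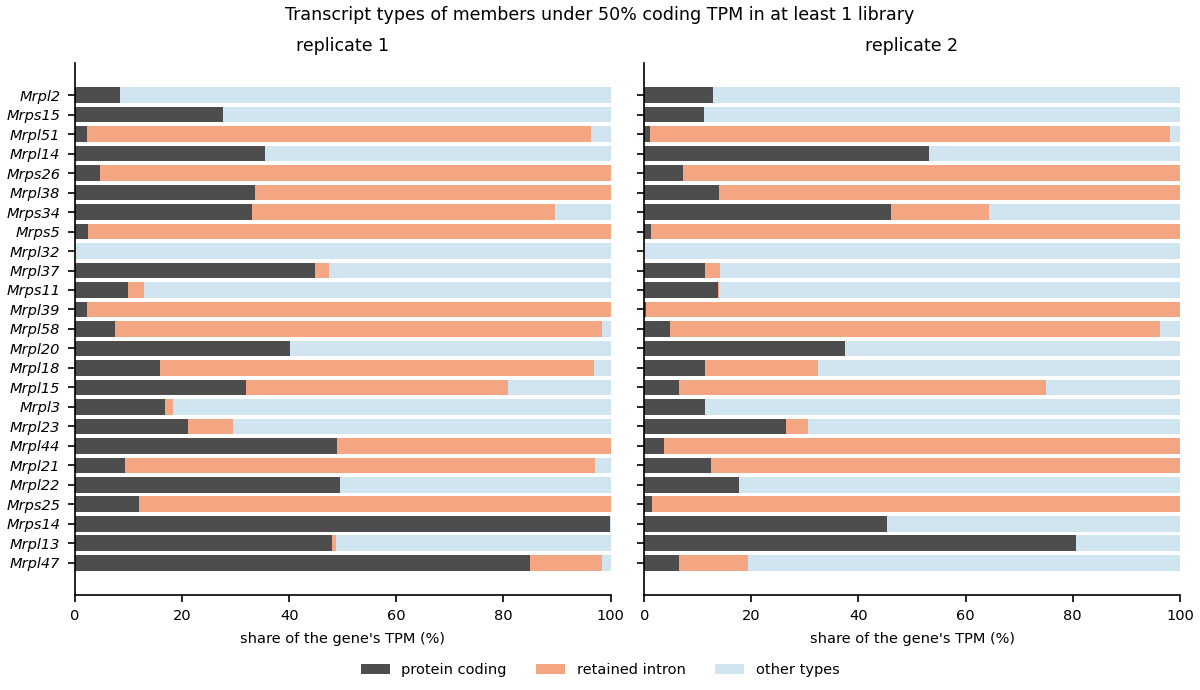
Share of the gene's TPM (horizontal axis, percent) in protein-coding, retained-intron and other transcripts for each member under 50% coding TPM in at least 1 library, in replicate 1 at left and replicate 2 at right, ordered by mean level. Retained-intron forms fill most of the bar in Mrpl51, Mrps26, Mrps5, Mrpl39 and Mrpl58 in both libraries, and other types fill Mrpl32.

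Some counts may be shared with other genes. Of the 77 members, 30 share 30 or more words of 25 bases of coding sequence with an annotated pseudogene, and 32 overlap exons of another gene, 28 on the opposite and 7 on the same strand. It is not known whether counting was stranded, so opposite overlapping genes may share reads, which was not tested. The deposited posterior SD of the count was above 0 in either library in 12 of the 77 members. Among members with an opposite overlap, these were only Mrpl12, Mrpl27, Mrpl53, Mrps18b and Mrps34. Each of them also shares coding sequence with an annotated pseudogene or overlaps a gene on the same strand. In the other members with an opposite overlap the SD was 0 in both libraries. The longest overlaps were Mrps25 with Nr2c2 over 4590 exonic bases and Mrpl19 with Gcfc2 over 1962. Mrpl53 shares 695 bases with Gm42688 on the same strand, and their counts of 439 and 299 for Mrpl53 and 818 and 750 for Gm42688, in replicate 1 and replicate 2, are estimates of a split. Left with neither kind of sharing were 26 members. Without the 30 that share sequence with a pseudogene, 43 of 47 members were detected. Of these 47, 7 (14.9%) were apart toward replicate 1 and 4 (8.51%) toward replicate 2, beside 14.8% and 8.36% of protein-coding genes tested. Without the 32 that overlap another gene, 8 of 45 (17.8%) were apart toward replicate 1 and 4 (8.89%) toward replicate 2. Over the protein-coding genes tested the shares were 14.8% and 8.36%.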

How the data were processed

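Polyadenylated RNA of 2 biological replicates of 1 group was measured by paired-end RNA-seq. The authors deposited a gene and a transcript table per library with expected counts, TPM, FPKM and the percent of each transcript in its gene, on mm10 with GENCODE M4 per the labels and the readme. Which aligner and counter were used is not stated there. In the same tables the posterior SD of counts, deposited by the authors, was used to see where reads were split.

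Identifiers were matched to GENCODE M21: 42462 of 43346 Ensembl rows matched, and 21474 were protein coding. The members and lists were chosen with earlier results of these data known. Levels are the deposited TPM. Expected counts were rounded and scaled with TMM in edgeR 4.0.16 (R 4.3.3), and log2 ratios of replicate 1 over replicate 2 used a prior count of 0.5 for genes with 20 or more counts in both libraries together. Apart means over 2-fold with the whole exact 95% binomial interval beyond it, which covers counting error only. The call was also run on simulated counts, which held counting error only and were scaled by total counts. Without variance between replicates, that run cannot show how the call behaves on real libraries. Alternatives were DESeq2 1.42.0 size factors, total counts, TPM ratios, other limits and pseudocounts, each library alone, and members left out. With 1 group there was no test. Named genes were the 6 highest and 4 lowest of each subunit, those under 1 TPM in a library, the 6 largest ratios each way, and a short list of well-known members, subunits of other names, Oxa1l and the 3 highest of each list. The lists of assembly factors, translation factors, synthetases and markers were written by hand. Protein sequences were not used here.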

Additional observations from a re-analysis of the deposited data

Results flagged for a closer look

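Outside the comparisons, pseudogene rows of the gene tables held counts above the 3 counts that a count of 0 allows. Gm6304, which shares 25-base words with the coding sequence of Mrpl27, had 205.78 expected counts in replicate 1 and 107.61 in replicate 2, beside 313 and 290 for Mrpl27. Gm13328, which shares words with Mrps5, had 20.78 expected counts in replicate 1 and 7.5 in replicate 2, beside 1943 and 1036 for Mrps5. How the reads were divided between gene and pseudogene was not tested.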

How the results depend on the processing

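With 1 library on each side, intervals cover counting error only and are wide where counts are low, as in Mrpl47 with 4 counts in replicate 2. Each library alone gave 69 to 75 members detected, a median level of 25.8 to 39.7 TPM, a share of 0.641 to 0.880% and a large minus small level of -0.53 to -0.17. Without members that share sequence with a pseudogene, 43 of 47 were detected, the large minus small level was 0.13 and the median ratio -0.17. Of these 47, 7 (14.9%) were apart toward replicate 1 and 4 (8.51%) toward replicate 2, beside 14.8% and 8.36% of protein-coding genes tested. With coding transcripts only, chosen after seeing the data, the median level was 18.5 TPM, the share 0.554% and the large minus small level -0.84. Without Mrpl52, also chosen after seeing the data, the share was 0.512%. The median ratio of the members was 0.48 with total counts, 0.37 with the ratio of TPM and -0.032 with 100 or more counts, and the members apart toward replicate 2 were 4 with total counts and 3 with the ratio of TPM. Without members that overlap another gene, chosen after seeing the data, the median ratio was 0.25. In this setting 8 (17.8%) were apart toward replicate 1 and 4 (8.89%) toward replicate 2, beside 14.8% and 8.36% of protein-coding genes tested. With Mrps30 and Mrps18a in the large subunit, the large minus small level was -0.18 and the large minus small ratio was -0.32. The cause was not tested for any of these, beyond the fewer members counted where members were left out. Over all alternatives run, 63 of the summary values stayed within their limits and 19 moved. Among single genes, 880 values stayed, 54 levels or differences moved, 8 ratios were no longer apart and 12 became apart. No paired analysis was possible because there is only 1 group.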
